A study of Mus musculus with 2 samples.

Results

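The cells described here are 466 conventional CD4 T cells from B16 melanoma tumours that lacked Foxp3 and lacked the activation products Tnfsf11, Penk and Ccl1, out of 11318 cell barcodes that passed the quality filter (4.12%, exact binomial 95% interval 3.76 to 4.50). They were chosen by their counts: 5 or more counts of Cd4 or Cd40lg, 5 or more of Cd3d, Cd3e, Cd3g or Trac, and under 5 of Foxp3, Cd8a, Cd8b1, the myeloid genes Csf1r, Adgre1 and Cd209a, and Tnfsf11, Penk and Ccl1. The melanocyte gene Mlana had to be under 10. Those gate genes chose the cells, so their values are a description and support nothing.

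B16F10 is a transplantable mouse melanoma line, grown here under the skin, and CD3-bearing cells were enriched from the tumours by magnetic positive selection at day 14. Cells of mice with a deletion of Nr4a genes (named as NR4a1/2 in the title of the series) and cells of wild-type mice were marked with hashtag antibodies, pooled and captured together in microwells, so that a single mRNA library and a single hashtag library hold both genotypes. The labels do not say which hashtag marks which genotype, how the deletion was made, or how old the mice were. The genotypes therefore could not be compared, and every value is for the pooled library or for a hashtag of unknown group, with no replicates and no test.

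CD4 T cells recognise peptides on MHC class II molecules and help other cells through cytokines and surface ligands. Those without Foxp3 are called conventional, to set them apart from regulatory T cells, which restrain immune responses. Conventional cells that pass through blood and lymph depend on the transcription factor Klf2 and the exit receptor S1pr1, and keep the factor Tcf7 and the interleukin-7 receptor Il7r. Cells that stay and act in tissue take up other programmes, with chemokine receptors such as Cxcr6 and effector genes such as Ifng and Gzmb.

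The gate removed most barcodes at its CD4 step. Of 9111 filtered barcodes with a T cell receptor gene, 1337 held Cd4 or Cd40lg, 1112 of those lacked the CD8 genes, 1025 also lacked the myeloid genes and Mlana, and 714 of these lacked Foxp3. The last step divided the 714 into the 466 conventional cells and 248 cells with Tnfsf11, Penk or Ccl1, called helpers with Tnfsf11, Penk or Ccl1 from here on. Tnfsf11, the ligand RANKL, was present in 234 of those 248. The other classes used for comparison were 311 Foxp3-positive CD4 cells and 3936 CD8 cells. All 3 classes differed from the conventional cells in depth. The conventional cells were the shallowest, with a median of 16091.5 counts (4416 to 119057), against 28559.5 in helpers with Tnfsf11, Penk or Ccl1, 33559 in Foxp3-positive cells and 28340 in CD8 cells. A cell with few counts falls under 5 counts of a gene more easily, so shares of cells are given after each cell was thinned to 10000 counts, where a gene was taken as present at 2 or more. That kept 384 conventional cells, 246 helpers with Tnfsf11, Penk or Ccl1, 305 Foxp3-positive cells and 3695 CD8 cells. How far depth itself moved cells across the gate was not tested.

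Many of the conventional cells lay close to a threshold. In 171 of 466 (36.7%) the higher of Cd4 and Cd40lg stood at 5 to 9 counts. Cd4 itself was at the gate in 441 cells, and 25 entered through Cd40lg, the ligand by which helper cells activate B cells, alone. Just inside the Foxp3 threshold were 44 cells with 1 to 4 Foxp3 counts, and just outside it 37 Foxp3-positive cells with 5 to 9. Just inside the last threshold were 42 cells with 1 to 4 counts of Tnfsf11, Penk or Ccl1, and just outside it 37 helpers whose highest of the 3 was 5 to 9. Only 1 of the 4 T cell receptor genes reached 5 counts in 73 cells, and all 4 did in 108.

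Some of the given markers were found in a larger share of the conventional cells than of the other classes, and others were not. Cd4, the coreceptor for MHC class II, lies on chromosome 6 from 124864692 to 124888221 (GRCm38, as are all coordinates here, from the GENCODE annotation; all of these genes are protein-coding). It was a gate gene and was present in 89.6% of the thinned conventional cells. S1pr1 (chromosome 3, 115710433 to 115715072), the receptor by which T cells leave tissue towards blood and lymph, was present in 30.5% of conventional cells (25.9 to 35.3). It was present in 13.01% of helpers with Tnfsf11, Penk or Ccl1, 13.8% of Foxp3-positive cells and 10.2% of CD8 cells. The share with S1pr1 was therefore highest in the conventional cells among the 4 classes, although against Foxp3-positive cells its log2 ratio of summed counts, 1.97, ranged from -0.08 to 2.61 over 5 hashtags. Trat1 (chromosome 16, 48730774 to 48772021), an adaptor that stabilises the T cell receptor complex, was present in 13.8% of conventional cells (10.5 to 17.7), against 4.07% of helpers with Tnfsf11, Penk or Ccl1, 13.8% of Foxp3-positive cells and 1.65% of CD8 cells. Trat1 therefore did not separate conventional from Foxp3-positive cells. Ramp3 (chromosome 11, 6658521 to 6677475), a partner of calcitonin-family receptors, was present in 28.1% of conventional cells, against 46.7% of helpers with Tnfsf11, Penk or Ccl1, 11.5% of Foxp3-positive cells and 9.55% of CD8 cells. Rora (chromosome 9, 68653786 to 69388246), a nuclear receptor of several helper and innate lineages, was present in 52.1%, against 65.9%, 55.4% and 21.9% of helpers with Tnfsf11, Penk or Ccl1, Foxp3-positive and CD8 cells. Ramp3 and Rora were both found in a larger share of helpers with Tnfsf11, Penk or Ccl1 than of conventional cells. Intervals on shares cover the counting error of cells only. Those on levels treat every count as independent, which repeated reads of a molecule are not, so they may be too narrow even for counting error.

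**Figure D1:**
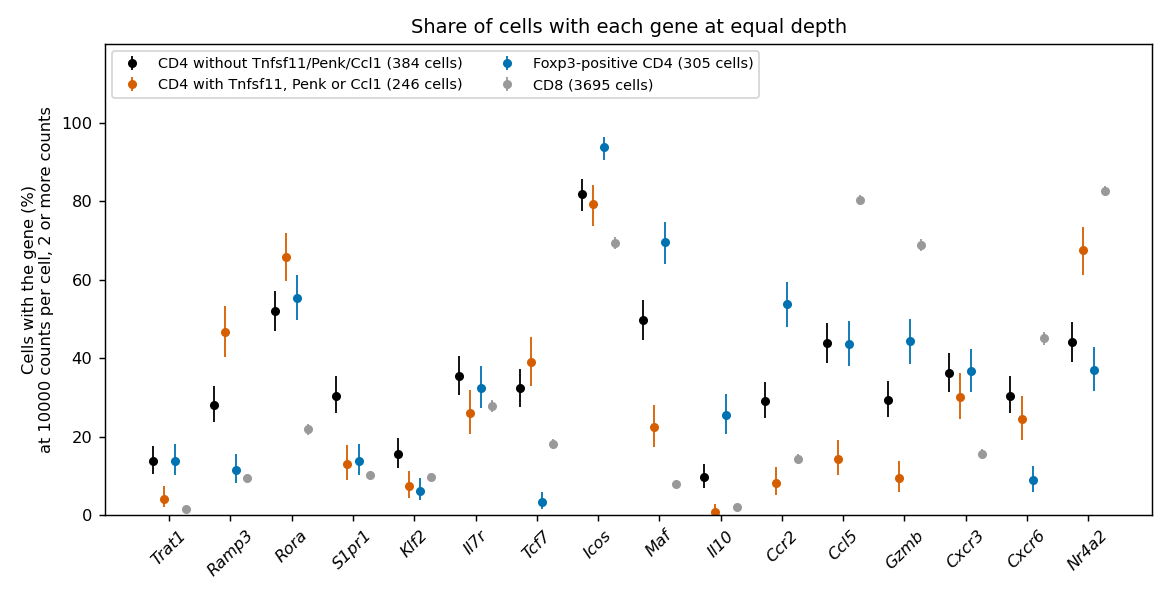
Share of cells with each of 16 genes (%, 2 or more counts) after every cell was thinned to 10000 counts, in conventional CD4 cells (black), helpers with Tnfsf11, Penk or Ccl1 (orange), Foxp3-positive CD4 cells (blue) and CD8 cells (grey). Bars are exact binomial 95% intervals, and the black point for S1pr1 (30.5%) lies above those of the other 3 classes while that for Ramp3 (28.1%) lies below the orange one (46.7%).

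A hashtag was called for 203 of the 466 cells (43.6%), at a median of 9 hashtag counts per cell. A0301 marked 89 of them, A0306 marked 46 and A0305 marked 42, while A0303 had 11, A0304 had 10 and A0302 had 5. Of the called CD4 cells of the 3 CD4 classes, the conventional cells were between 25.6% (13.5 to 41.2, A0303) and 46.1% (38.9 to 53.4, A0301), and the intervals of all 6 shares overlap. Levels in conventional cells also ranged over the hashtags. Rora stood between 350.8 and 777.8 CPM (counts scaled to a total of 1000000 over each sum of cells) and Maf between 253 and 499 CPM in the 6 hashtags. S1pr1 was at 0 in the 5 cells of A0302 and between 103 and 254 CPM in the other hashtags. Wider ranges than that of Rora were found for Gzmb, from 5.50 (A0302) to 2895 CPM (A0304), and Ccl5, from 396 (A0302) to 1857 CPM (A0304). Tcf7 ranged from 28.7 (A0303) to 391 CPM (A0304) and Ikzf2 from 16.5 (A0302) to 735 CPM (A0303). Ratios within hashtags are given for the 5 hashtags with 10 or more cells in both classes, which leaves A0302 out, and these rest on 10 to 89 conventional cells each.

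Genes were compared between classes as log2 ratios of summed counts, scaled to the same total, with 5 counts added to each sum. In such sums, fewer cells with a gene and less of its RNA per cell cannot be told apart, so shares of cells are given beside them. A gene past the filter (a mean of 50 CPM and 100 counts over both sums) was called higher or lower at a ratio of 2-fold. Against helpers with Tnfsf11, Penk or Ccl1, 184 of 3583 genes were higher in the conventional cells (5.14%) and 88 lower (2.46%), or 7.59% in either direction. Of these, 102 higher (2.85%) and 49 lower genes (1.37%) also had that sign in all 5 hashtags (4.21% together). Against Foxp3-positive cells 124 of 3587 genes were higher (3.46%) and 96 lower (2.68%), or 6.13% in either direction, and 67 (1.87%) and 60 (1.67%) had that sign in all 5 hashtags (3.54% together). That balance turned to 107 higher and 151 lower without cycling cells, 105 and 125 after thinning, 117 and 147 with the mean of each cell's CPM, and 131 and 151 without the deepest 5% of each class. Against CD8 cells 127 of 3548 genes were higher (3.58%) and 66 lower (1.86%), or 5.44% in either direction, and 70 (1.97%) and 45 (1.27%) had that sign in all 5 hashtags (3.24% together). The gate and these ratios come from the same cells, and the 3 comparisons share the conventional cells, so the counts are descriptions of this library and not tests. The named genes come from the 10 highest and the 10 lowest ratios of each comparison among genes with that sign in all 5 hashtags.

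Conventional cells had more of the chemokine gene Ccl5, the granzyme gene Gzmb, the chemokine receptor gene Ccr2 and the transcription factor gene Maf, while helpers with Tnfsf11, Penk or Ccl1 had more of Dusp14, Cd83, Cd200 and Ccr7. Ccl5, which draws T cells and myeloid cells, stood at 1120 CPM in conventional cells (Poisson 95% interval 1099 to 1141) and 69.1 CPM in helpers with Tnfsf11, Penk or Ccl1 (64.1 to 74.4), a log2 ratio of 4.01 (2.04 to 5.23 over the 5 hashtags). At equal depth it was present in 43.8% of conventional cells and 14.2% of those helpers. Gzmb, a serine protease of cytotoxic granules, stood at 681 CPM in conventional cells and 64.8 CPM in helpers with Tnfsf11, Penk or Ccl1, a log2 ratio of 3.39 (2.61 to 5.56), and at 29.4% and 9.35% of cells. Ccl5 and Gzmb were therefore carried by a minority of the conventional cells and by a smaller minority of the helpers. Of the cytotoxic list as a whole 3 of 12 genes past the filter were higher, Ccl5, Gzmb and Gzma, and 2 lower, Gzmc and Klrc1 (median log2 ratio 0.37). For all genes past the filter the shares were 5.14% higher and 2.46% lower.

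Maf (chromosome 8, 115682942 to 115707794), a factor that drives Il10 and follicular helper genes, stood at 500.1 CPM in conventional cells and 109 CPM in helpers with Tnfsf11, Penk or Ccl1, a log2 ratio of 2.19 (0.86 to 4.08). It was present in 49.7% and 22.4% of them at equal depth. Ccr2, a receptor for monocyte chemokines, stood at 286 and 54.0 CPM, with a log2 ratio of 2.39 (1.19 to 4.23), and 1.57 after thinning. Foxp3-positive cells carried Maf (643 CPM, 69.5% of thinned cells) and Ccr2 (514 CPM, 53.8%) in larger shares than the conventional cells, where Ccr2 was present in 29.2%. Both genes thus lay between helpers with Tnfsf11, Penk or Ccl1 and Foxp3-positive cells in the conventional cells.

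Among the other genes higher in conventional cells than in helpers with Tnfsf11, Penk or Ccl1 were Gzma, Gbp9, Trat1, S1pr1 and Fgl2. S1pr1 stood at 246 CPM in conventional cells and 50.9 CPM in those helpers, a log2 ratio of 2.26 (1.03 to 3.29) and 1.58 after thinning, and Trat1 at 95.8 and 19.5 CPM, with 2.27 (0.09 to 2.50). Fgl2, a secreted or membrane-bound fibrinogen-like protein, had a log2 ratio of 2.19 (1.34 to 3.83), and 1.16 after thinning. Gbp9, an interferon-induced GTPase whose close copies may share its reads, had 2.65 (0.78 to 2.82), and 1.97 without cycling cells. Gzma, another granzyme, had the largest ratio, 6.76 (2.38 to 6.72), with 1483 counts in conventional cells and 9 in those helpers. It was present in 4.43% of thinned conventional cells, and a single barcode held 28.7% of its counts. Without the barcodes of A0301 the Gzma ratio was 6.09, and after thinning 4.98.

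The genes lower in conventional cells than in helpers with Tnfsf11, Penk or Ccl1 were also found in smaller shares of them. Dusp14, a phosphatase that dampens T cell receptor signals, stood at 28.0 CPM in conventional cells and 402 CPM in those helpers, a log2 ratio of -3.82 (-5.11 to -3.20), and was present in 4.95% and 40.2% of thinned cells. Cd83, a surface protein of activated lymphocytes and dendritic cells, stood at 25.8 and 149.8 CPM with -2.51, and was present in 3.39% and 25.6%. Ccr7, the receptor that guides T cells into lymph nodes, stood at 103 and 500.4 CPM with -2.27 (-4.22 to -1.14), and was present in 13.3% and 38.6%. Ccr7 thus went the other way from S1pr1, although both belong to recirculating cells. The remaining 7 were Igfbp7 (-2.61), the decoy receptor gene Il1r2 (-2.37), Gpm6b (-2.35), the inhibitory ligand gene Cd200 (-2.28), Nrn1 (-2.24), Wisp1 (-1.99) and Ptprs (-1.93).

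**Figure D2:**
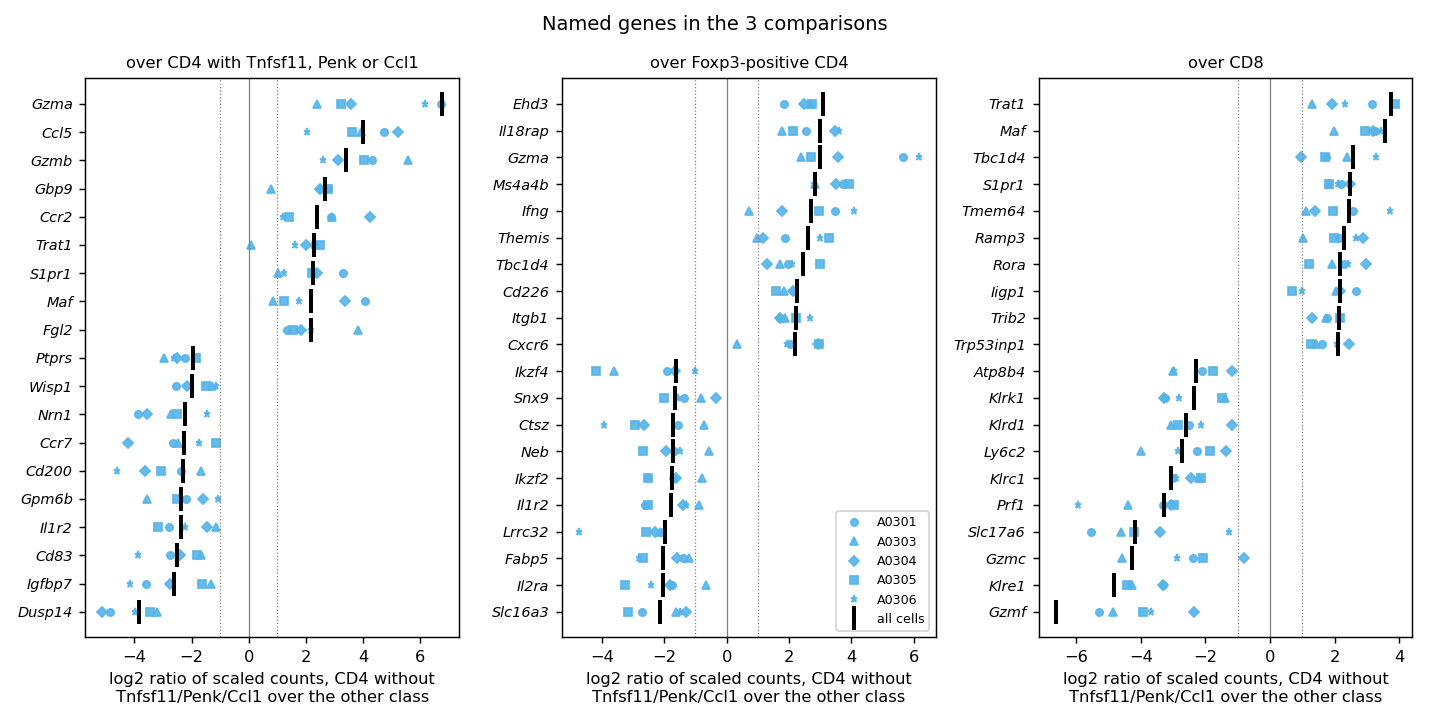
Log2 ratio of scaled counts, conventional CD4 cells over the class named above each panel, for the named genes highest and lowest in each comparison. Black bars are all cells, blue symbols the 5 hashtags, dotted lines the 2-fold size, and every blue symbol lies on the same side of 0 as its black bar, as the naming rule required.

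Against Foxp3-positive cells, 7 of 13 genes of the Th1 list were higher in the conventional cells and 9 of 15 regulatory genes lower. Over all genes past the filter 3.46% were higher and 2.68% lower. Ifng, the cytokine that activates macrophages and MHC genes, stood at 199 CPM in conventional cells and 29.9 CPM in Foxp3-positive cells, a log2 ratio of 2.72 (0.70 to 4.09). At equal depth it was present in 18.2% of conventional and 6.89% of Foxp3-positive cells, and in 30.5% of helpers with Tnfsf11, Penk or Ccl1. Il18rap, a chain of the interleukin-18 receptor, stood at 124 and 15.1 CPM, with 2.99 (1.78 to 3.59). Cxcr6, a receptor for Cxcl16 found on tissue T cells, stood at 234 and 50.7 CPM, with 2.19 (0.34 to 2.95), and was present in 30.5% and 8.85% of cells. None of the 13 genes of the Th1 list past the filter was lower (median log2 ratio 1.14), and the 7 higher genes were these 3, Ccl5, Stat4, Il12rb2 and Bhlhe40. Tbx21, the factor that defines Th1 cells, was not among them, at 71.2 CPM in conventional and 83.3 CPM in Foxp3-positive cells. Without cycling cells (Mki67 or Top2a at 5 or more) 3 of 13 were higher and the ratio of Ifng was 1.83, and after thinning that of Il18rap was 2.27. Against helpers with Tnfsf11, Penk or Ccl1 the Th1 list had 1 higher gene of 13, Ccl5, and a median of 0.03, where 5.14% of all genes past the filter were higher.

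The other genes higher than in Foxp3-positive cells were Ehd3, Gzma, Ms4a4b, Themis, Tbc1d4, Cd226 and Itgb1. Ms4a4b, a membrane protein of naive and Th1 cells, stood at 1362 CPM in conventional and 192 CPM in Foxp3-positive cells, a log2 ratio of 2.82 (2.80 to 3.94), and was present in 75% and 27.5% of thinned cells. Itgb1, the beta chain of integrins that bind extracellular matrix, stood at 710.4 and 153 CPM, with 2.21 (1.71 to 2.66), and was present in 59.9% and 25.9%. Both genes were thus found in most conventional cells, where Ifng and Cxcr6 were found in a minority. Themis, a regulator of T cell receptor signals, had 2.61 (0.97 to 3.29), Cd226, an activating receptor, 2.26 (1.58 to 2.14) and Ehd3, a membrane-trafficking protein, 3.09 (1.85 to 2.74). Gzma, with 88.9% of its counts in Foxp3-positive cells on 1 barcode, had 2.99, and 2.35 without the barcodes of A0301. Its ratio ranged from 1.65 without cycling cells to 5.11 with gates at 3 counts. Without cycling cells the ratio of Ms4a4b was 2.03, that of Tbc1d4 1.62 and that of Cd226 1.38.

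Of 15 regulatory genes past the filter 9 were lower and 0 higher than in Foxp3-positive cells (median log2 ratio -1.25), all 9 with that sign in the 5 hashtags. Il2ra, the interleukin-2 receptor alpha chain, stood at 204 CPM in conventional and 842 CPM in Foxp3-positive cells, a log2 ratio of -2.04 (-3.27 to -0.67). Ikzf2 (Helios) stood at 315.2 and 1058 CPM, with -1.74, and Lrrc32, which holds latent TGF-beta on regulatory cells, at 50.6 and 201 CPM, with -1.98. Ikzf4 (-1.63), the TNF receptor family genes Tnfrsf9, Tnfrsf4 (-1.25) and Tnfrsf18 (-1.06), Klrg1 and Capg made up the rest. The same list had 3 of 11 genes higher and 0 lower than in helpers with Tnfsf11, Penk or Ccl1 (Ctla4, Ikzf2 and Il10; median 0.15), none of them with that sign in the 5 hashtags. It also had 3 of 11 higher and 0 lower than in CD8 cells (Ikzf2, Il10 and Tnfrsf4; median 0.69), of which Ikzf2 alone had that sign in the 5 hashtags. Among all genes past the filter 5.14% were higher than in those helpers and 3.58% higher than in CD8 cells. Also among the 10 lowest genes were the lactate transporter Slc16a3 (-2.13), the fatty acid carrier Fabp5 (-2.04), Il1r2 (-1.79), Neb (-1.73), the protease Ctsz (-1.72) and Snx9 (-1.64). Without cycling cells Fabp5 stood at -1.001, Neb at -2.51 and Snx9 at -2.29.

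Regulatory genes were found in a larger share of the conventional cells just under the Foxp3 threshold than of those with no Foxp3 count, although the second group held more of the cells that carried one. Of the 44 cells with 1 to 4 Foxp3 counts, 42 had at least 1 of Lrrc32, Ikzf2 and Il2ra at 5 or more counts (95.5%, 84.5 to 99.4), against 90 of the 422 cells with no Foxp3 count (21.3%, 17.5 to 25.5). At least 2 of the 3 were present in 25 of the 44 (56.8%) and 22 of the 422 (5.21%), and in 78.8% of Foxp3-positive cells. Ikzf2 was present in 77.3% of the 44 and 16.6% of the 422, and Il2ra in 61.4% and 8.77%. Lrrc32 was present in 29.5% of the 44 and 3.08% of the 422. By the shares with at least 1 or at least 2 of the 3 genes, the 44 cells resembled Foxp3-positive cells more than the other conventional cells. These shares are not thinned, and the depths of the 44 and the 422 cells were not compared. Leaving out every conventional cell with a Foxp3 count or with Lrrc32, Ikzf2 or Il2ra at 5 or more, an alternative chosen after the data had been seen, kept 332 cells. Against the Foxp3-positive cells 334 genes were then past 2-fold in place of 220. Against helpers with Tnfsf11, Penk or Ccl1 the ratio of Maf was then 1.80 and that of Ccr2 1.64, against 2.19 and 2.39 with all 466 cells, while Ccl5 stood at 4.00.

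**Figure D3:**
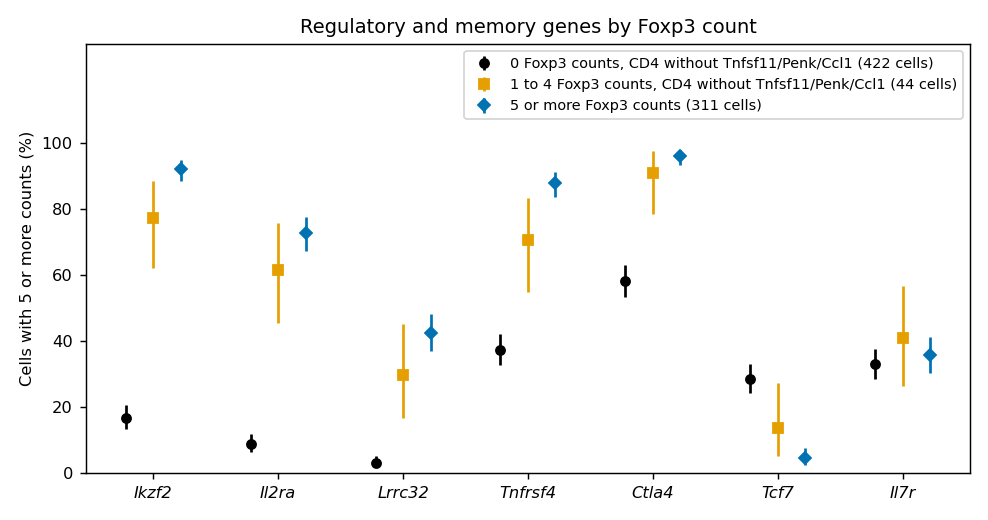
Share of cells (%, 5 or more counts) with regulatory and memory genes in conventional CD4 cells with no Foxp3 count (black), conventional CD4 cells with 1 to 4 Foxp3 counts (orange) and Foxp3-positive CD4 cells (blue). Bars are exact binomial 95% intervals, and the orange points for Ikzf2 (77.3%) and Il2ra (61.4%) lie near the blue ones and far from the black ones (16.6% and 8.77%). For Lrrc32 the orange point is at 29.5% and the black one at 3.08%. Shares are not thinned to equal depth.

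Against CD8 cells the conventional cells had more Maf, Trat1, S1pr1, Rora and Ramp3 and fewer killer cell genes. Maf stood at 500.1 CPM in conventional and 42.0 CPM in CD8 cells, a log2 ratio of 3.56 (1.98 to 3.42) and 2.82 without cycling cells, and Trat1 at 95.8 and 6.67 CPM, with 3.75 (1.31 to 3.88). S1pr1 had 2.47 (1.82 to 2.47), Ramp3 2.28 (1.02 to 2.89) and Rora 2.15 (1.22 to 2.97). Tbc1d4 (2.56), a Rab GTPase-activating protein, Tmem64 (2.46), the interferon-induced GTPase Iigp1 (2.15, and 1.47 without cycling cells), the pseudokinase Trib2 (2.14) and Trp53inp1 completed the 10 highest. All of the given markers other than Cd4, a gate gene, were among the 10 highest genes over CD8 cells. The markers were chosen with earlier results of these data known, so their rank here is a description and supports nothing.

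Of 16 cytotoxic genes past the filter 13 were lower and 0 higher than in CD8 cells (median log2 ratio -2.07), 11 of them with that sign in the 5 hashtags. The share of all genes past the filter that were lower was 1.86%. Perforin (Prf1), which opens the target membrane, stood at 39.4 CPM in conventional and 390 CPM in CD8 cells, a log2 ratio of -3.29 (-5.94 to -2.98), and was present in 5.21% and 43.5% of thinned cells. Gzmb stood at 681 and 2342 CPM, with -1.78, and 1 of the 5 hashtags went the other way (0.26). The granzyme genes Gzmf (-6.63, 14 counts in conventional cells) and Gzmc (-4.28) are close copies whose reads may be split, and Gzmc stood at -5.54 without the barcodes of A0301. The lectin receptor genes Klre1 (-4.84), Klrc1 (-3.07), Klrd1 and Klrk1 (-2.36), the glutamate transporter gene Slc17a6 (-4.18, and -5.78 without the barcodes of A0306), Ly6c2 (-2.73) and Atp8b4 (-2.29) were the other lowest genes. The 3 cytotoxic genes within 2-fold of CD8 cells were Gzma, at 149 CPM in conventional and 218 CPM in CD8 cells, the death ligand gene Fasl, at 67.9 and 76.7 CPM, and the granzyme gene Gzmk, at 53.5 and 66.3 CPM. Of 6 inhibitory receptor genes 4 were lower, Pdcd1, Lag3, Havcr2 and Entpd1, and Pdcd1 was present in 19.8% of conventional and 44.95% of CD8 cells. Ctla4 was not among them, with 67.7% and 72.4% of cells, and its pooled level was 1235 CPM in conventional and 764 CPM in CD8 cells, within 2-fold.

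Of the genes of recirculation and quiescence, 6 of 13 were higher and 1 lower than in helpers with Tnfsf11, Penk or Ccl1 (median log2 ratio 0.93). Against Foxp3-positive cells 6 of 14 were higher and 1 lower (median 0.87), and against CD8 cells 8 of 14 higher and 0 lower (median 1.02), but 3 higher without cycling cells, 4 after thinning and 5 with the mean of each cell's CPM. The list of tissue residence and chemokine receptor genes was about as high, with 4, 5 and 2 of 10 genes higher and 0 lower over helpers with Tnfsf11, Penk or Ccl1, Foxp3-positive and CD8 cells (medians 0.80, 1.00 and 0.82). Against Foxp3-positive cells 3 genes of that second list were lower without cycling cells or after thinning. The medians over all genes past the filter were 0.01, -0.01 and 0.06, and 5.14%, 3.46% and 3.58% of those genes were higher. The shares lower were 2.46%, 2.68% and 1.86%. With the same sign required in 5 hashtags, 3, 1 and 4 of the recirculation list and 3, 4 and 2 of the residence list were higher over the 3 classes. Klf2 (chromosome 8, 72319033 to 72321656) stood at 145 CPM in conventional cells, against 26.4 in helpers with Tnfsf11, Penk or Ccl1, 33.0 in Foxp3-positive cells and 51.1 in CD8 cells, and was present in 15.6%, 7.32%, 6.23% and 9.80% of them. In conventional cells Klf2 was at 0 in the 5 cells of A0302 and the 11 of A0303, and between 76.5 and 172 CPM in the other hashtags. Il7r stood at 422 CPM, against 150.4, 214 and 179 CPM, and was present in 35.4%, 26.0%, 32.5% and 27.8%. Tcf7 (chromosome 11, 52252371 to 52283014) stood at 216 CPM, against 256, 11.03 and 99.2 CPM, and was present in 32.3%, 39.0%, 3.28% and 18.02%. Tcf7 was therefore present in a larger share of conventional than of Foxp3-positive cells, but in a minority of both. Its log2 ratio between them was 4.23, with a range of -0.54 to 5.68 over the hashtags, so the sign was not the same in all. Tcf7 did not separate conventional cells from helpers with Tnfsf11, Penk or Ccl1.

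**Figure D4:**
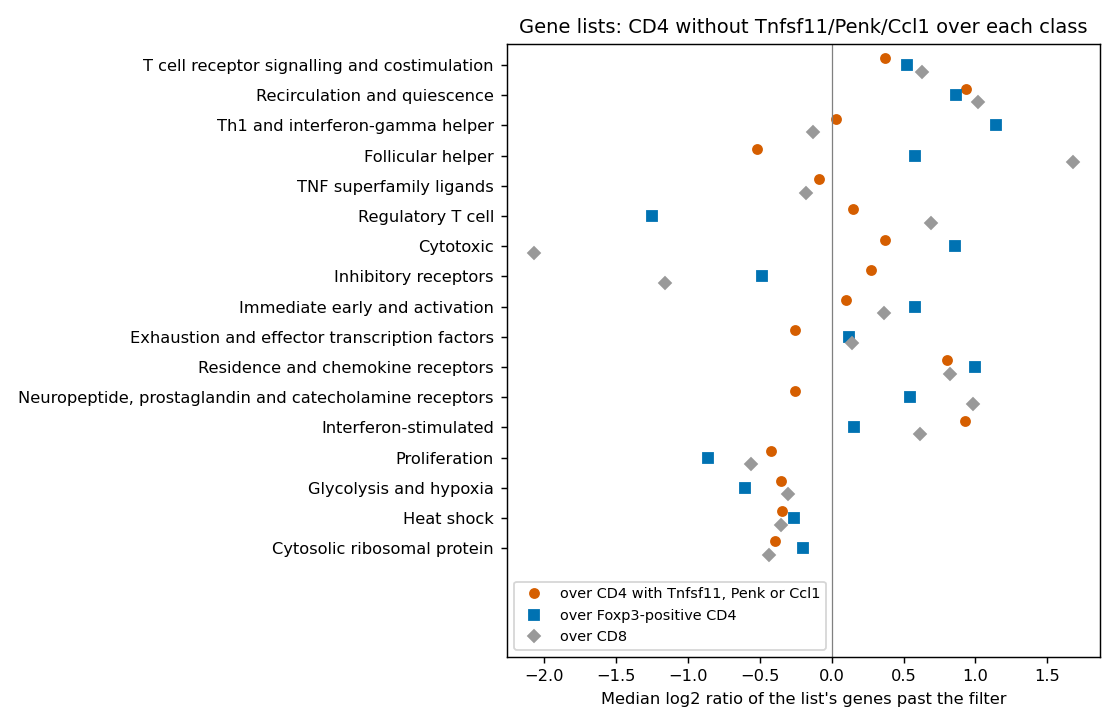
Median log2 ratio, conventional CD4 cells over helpers with Tnfsf11, Penk or Ccl1 (orange circles), Foxp3-positive CD4 cells (blue squares) and CD8 cells (grey diamonds). Lists with 3 or more genes past the filter are shown, other than the Th2 list and the lists of other cell types. Among the lists shown the regulatory list is lowest over Foxp3-positive cells (-1.25) and the cytotoxic list over CD8 cells (-2.07). Over all 3 classes the recirculation list lies between 0.87 and 1.02 and the residence list between 0.80 and 1.00.

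The conventional cells were not uniform, and Tcf7 divided them. Of the 384 thinned cells 124 had Tcf7 and 260 did not, at median depths of 16386 and 19095.5 counts before thinning. Il7r was present in 62.1% of cells with Tcf7 (52.9 to 70.7) and 22.7% of cells without (17.7 to 28.3), S1pr1 in 65 of the 124 (52.4%) and 52 of the 260, Klf2 in 26.6% and 10.4%, and Ccr7 in 31 of the 124 and 20 of the 260 (7.69%). Trat1 (27 of the 124 and 26 of the 260) and Ramp3 (37.1% and 23.8%) were also found more often with Tcf7. In this pooled library the genes of recirculating cells were therefore found more often in the cells with Tcf7. These shares were not examined within hashtags, and their intervals over cells do not cover the spread between mice.

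The cells without Tcf7 carried the tissue and effector genes. Cxcr6 was present in 12.9% of cells with Tcf7 (7.56 to 20.1) and 38.8% of cells without (32.9 to 45.1), Gzmb in 12.9% and 37.3%, Pdcd1 in 11 of the 124 (8.87%) and 65 of the 260, and Ctla4, an inhibitory receptor that binds CD80 and CD86, in 50.8% and 75.8%. The cycling gene Mki67 was present in 7.26% and 23.1%. Ifng stood at 10.5% (5.70 to 17.3) and 21.9% (17.05 to 27.5), where the intervals just meet. Icos, a costimulatory receptor, did not follow the divide, with 79.0% and 83.1%, and Cxcr3, a receptor for interferon-induced chemokines, did not either, with 37.1% and 35.8%. All of these genes were measured in the same cells, so their pairing is a description of this library.

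**Figure D5:**
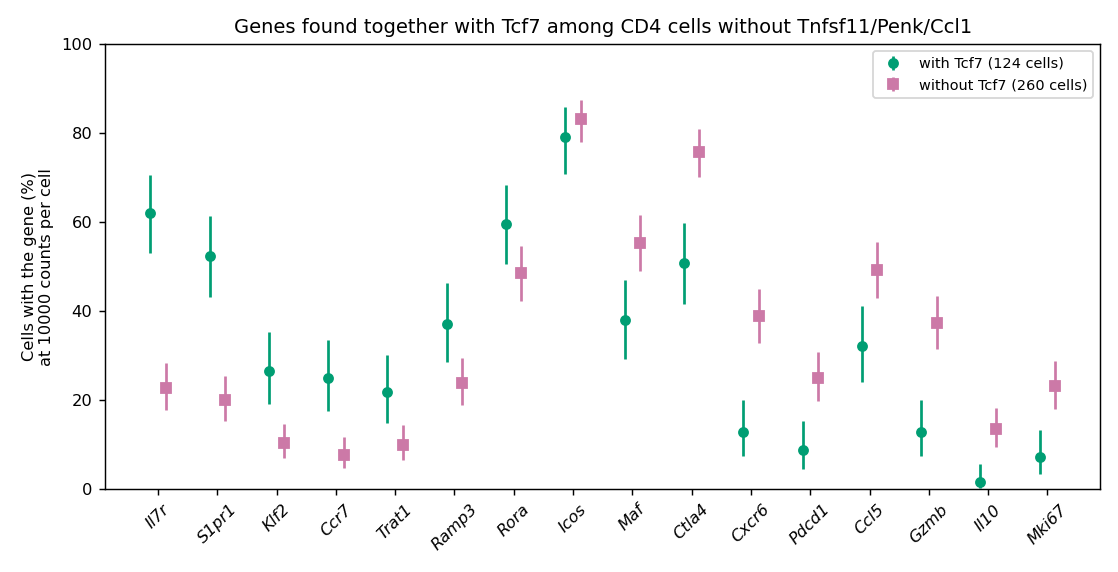
Share of conventional CD4 cells (%, 2 or more counts at 10000 counts per cell) with each gene among the 124 cells with Tcf7 (green circles) and the 260 without (pink squares). Bars are exact binomial 95% intervals, and Il7r and S1pr1 lie higher with Tcf7 while Cxcr6, Gzmb and Ctla4 lie higher without it.

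Maf marked a second grouping that overlapped the first. Of the 384 thinned cells 144 had Maf without Tcf7 (37.5%), 77 Tcf7 without Maf (20.1%), 47 both (12.2%) and 116 neither (30.2%). Il10, the anti-inflammatory cytokine (chromosome 1, 131019845 to 131024974), was present in 16.2% of cells with Maf (11.3 to 22.2) and 3.11% of cells without (1.15 to 6.64). Gzmb was present in 39.3% and 19.7%, and Ikzf2 in 37.7% and 15.03%. Conventional cells with 1 to 4 Foxp3 counts, of which 77.3% had Ikzf2 at 5 or more counts, were not left out of these shares. Whether the pairing of Maf with Il10 and Ikzf2 holds without them was not tested. Cells with Maf were deeper before thinning, with medians of 21528 and 15855 counts. S1pr1 was present in 29.8% of cells with Maf and 31.1% of cells without, so Maf did not divide the exit receptor as Tcf7 did. Cells with Gzmb had Ccl5 in 69.03% (59.6 to 77.4), against 33.2% of those without (27.6 to 39.2), and Mki67 in 30.1% and 12.9%.

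Cytokines of other helper lineages were close to absent in the conventional cells. Il17a, the cytokine of Th17 cells, had 0 counts, which allows a level of up to 3 counts, or 0.301 CPM. Il4 had 0.502 CPM and Il22 3 counts, and Il13 1.10 CPM, all from at most 1 barcode at 5 or more counts. Il5, at 6.12 CPM, had 91.8% of its counts on 1 barcode. Il21 stood at 5.62 CPM in conventional cells and 18.2 CPM in helpers with Tnfsf11, Penk or Ccl1, and the follicular helper genes Bcl6 and Cxcr5 at 14.8 and 10.2 CPM, against 30.6 and 13.1 CPM. Cd40lg, a gate gene, was present in 9.64% of thinned conventional cells and 16.3% of those helpers. By the genes named so far in this paragraph no follicular helper, Th2 or Th17 group could thus be described at this depth. Other genes linked to Th2 or follicular helper cells were not close to absent. Gata3 was present in 17.2% of thinned conventional and 8.15% of thinned CD8 cells, and Areg in 7.55% and 5.47%. Izumo1r was present in 18.75% and 4.87%, and Slamf6 in 20.1% and 8.23%. Whether these genes mark a group of such cells was not tested. Against CD8 cells 2 of 3 Th2 genes past the filter were higher and 0 lower. Of the follicular helper genes 3 of 5 were higher and 1 lower. Against helpers with Tnfsf11, Penk or Ccl1 these were 0 of 3 higher and 0 lower, and 2 of 7 higher and 2 lower. Against Foxp3-positive cells they were 0 of 3 higher and 1 lower, and 2 of 5 higher and 1 lower. Of all genes past the filter 3.58%, 5.14% and 3.46% were higher in these comparisons, in the order given, and 1.86%, 2.46% and 2.68% lower.

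Of the Nr4a receptors, orphan nuclear receptors induced by T cell receptor signals, Nr4a2 was lower in conventional cells, at 467 CPM against 974 CPM in helpers with Tnfsf11, Penk or Ccl1 and 1458 CPM in CD8 cells, log2 ratios of -1.06 and -1.64 with the same sign in 5 hashtags. Nr4a1 (269 CPM, against 272 and 234 CPM) and Nr4a3 (307.8 CPM, against 382 and 221 CPM) were not past 2-fold. These levels pool both genotypes in unknown proportion. Of 18 immediate early and activation genes past the filter 4 were higher than in Foxp3-positive cells (Egr1, Fosb, Cd69 and Dusp2) and 2 lower (Tnfrsf4 and Tnfrsf9). Proliferation genes had 5 lower of 16 and 0 higher against Foxp3-positive cells, but 8 lower after thinning and 12 without the deepest 5%, and Mki67 was present in 17.97% of conventional and 35.4% of Foxp3-positive cells. In that comparison 3.46% of all genes past the filter were higher and 2.68% lower.

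Genes of other cell types were measured beside these results. Genes of B and plasma cells summed to 4690 CPM, against 11.6 CPM in helpers with Tnfsf11, Penk or Ccl1 and 132 CPM in Foxp3-positive cells, and 99.05% of them lay on 1 barcode. That barcode held 20922 counts of Igha and 20502 of Igkc beside 15 of Cd4 and 36 of Trac, so the immunoglobulin genes it puts past 2-fold are not described as genes of the conventional cells. Without it 465 cells were left and 222, 268 and 194 genes were past 2-fold against Foxp3-positive cells, helpers with Tnfsf11, Penk or Ccl1 and CD8 cells. Fibroblast and endothelial genes summed to 182 CPM, against 28.2 in helpers with Tnfsf11, Penk or Ccl1, with 75.6% on 1 barcode. The macrophage list summed to 490.1 CPM, against 232, 505 and 1889 CPM in helpers with Tnfsf11, Penk or Ccl1, Foxp3-positive and CD8 cells, and 9 of its 14 genes were present in under 1% of conventional cells. Ly6c2, which CD8 cells also carry, supplied 215 of the CPM in conventional cells and 1433 of those in CD8 cells, and the other 13 genes summed to 275 CPM, against 185, 440.3 and 457 CPM. Melanoma genes summed to 309.6 CPM, against 205, 199.8 and 208 CPM, and to 32539 CPM in melanoma barcodes. The dendritic list summed to 499 CPM, against 122, 1657 and 351 CPM. Cd8a and Cd8b1 were held under 5 counts by the gate. The part of these counts in the ratios above was not tested, beyond the removal of the barcodes with Lyz2, C1qa, Cd68 or Apoe at 5 or more, which left 443 cells and moved no comparison's count by over 1.5 times.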

How the data were processed

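A single BD Rhapsody capture, amplified by TAS-Seq, gave the mRNA and hashtag libraries used here, per the labels' protocols. The authors deposited whole-number counts per gene or hashtag and barcode. The submitters' processing notes name GRCm38 and the tools cutadapt 2.10, R 3.5.3 and Bowtie2 in versions 2.3.4.1 and 2.4.2, without their roles. No source used here says whether molecular identifiers were collapsed. The median non-zero value was 7, so counts were treated as reads, which are not independent molecules.

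The mRNA table held 12016 barcodes (median 25960.5 counts, 4138 to 892142) and 27635 genes, and 11808 of the barcodes were in the hashtag table. Cells needed at least 500 genes and at most 25% mitochondrial counts. A hashtag was called where adding it to the background mixture raised the log likelihood by 3 or more, and by 3 more than any other hashtag, which itself had to stay under 3. The background came from the hashtag table's remaining barcodes that held fewer than 10 hashtag counts. Doublets were not called.

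Cells are not replicates, so no p-value was computed. Named genes are, per comparison, the 10 highest and 10 lowest ratios past 2-fold with 1 sign in 5 hashtags, without gate, predicted, ribosomal protein, mitochondrial, T cell receptor segment and immunoglobulin genes, besides the given markers and list members. Some of these genes are not reported here. The cells, lists and markers were chosen with earlier results of these data known. The comparison of sums was tested on simulated independent counts with known changes. That simulation held no cells, barcodes or hashtags, so it cannot show how reads clumped on few barcodes affect the ratios. Python 3.11.15 was used with numpy 2.4.6, scipy 1.17.1, pandas 2.3.3 and matplotlib 3.10.9.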

Additional observations from a re-analysis of the deposited data

How the results depend on the processing

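The number of conventional cells ranged from 332 to 512 over the alternatives and stayed within 1.5 times of 466. The 60 ratios chosen by the naming rule kept their sign under every alternative tried, but they were chosen as the most extreme with 1 sign in the 5 hashtags, so this is no evidence of stability. Of the 60, 30 moved by over 1.5 times under at least 1 alternative: 14 without cycling cells, 11 with gates at 10 counts and 9 after thinning, some under several. Neb against Foxp3-positive cells was at -0.95 with gates at 10 counts. The counts of genes past 2-fold depended on the filter on low genes, which also set how many genes were tested. With the filter at 10 CPM they were 799 of 8294 genes against Foxp3-positive cells. Against helpers with Tnfsf11, Penk or Ccl1 they were 1032 of 8254, and against CD8 cells 625 of 8204. At 200 CPM they were 50 of 873, 57 of 844 and 45 of 845 in that order. With the same sign required in 5 hashtags they were 127, 151 and 115. Without conventional cells carrying a regulatory gene 334 genes were past 2-fold against Foxp3-positive cells, where the removal itself sets the ratios of Il2ra, Lrrc32 and Ikzf2. Against Foxp3-positive cells 56.4% of the genes past 2-fold were higher, but 44.3% with the mean of each cell's CPM in place of sums, 45.7% after thinning, 46.5% without the deepest 5% and 41.5% without cycling cells; the cause was not tested. Of the recirculation list 8 genes were higher than in CD8 cells, but 3 without cycling cells and 4 after thinning.

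Leaving out the barcodes of 1 hashtag at a time gave 217 to 251 genes against Foxp3-positive cells, 263 to 302 against helpers with Tnfsf11, Penk or Ccl1, 181 to 210 against CD8 cells, and 377 to 461 conventional cells. Of the 16 proliferation genes 9 were lower than in Foxp3-positive cells without A0305, in place of 5. Ratios within each hashtag pair the classes by hashtag and are those given as ranges. No paired analysis was possible between genotypes or over replicates, because the library has no replicates and the labels tie no hashtag to a genotype. Some values rest on few barcodes, as for Gzma.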
